A study of Mus musculus with 3 samples.

Results

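The tripartite motif (TRIM) family was followed in cartilage cells with and without a recombinase directed at Kdm6b. Its members were taken as every row of the deposited gene table whose symbol is Trim followed by a number and, where present, a letter from a to d. This gave 67 genes of 44788. Of these, 56 had at least 1 count in the 3 libraries and 11 had none. The test was run on the 39 members that passed edgeR's filter on low counts, among 15529 genes tested in all, and the other 28 had at most 7 counts in any library.

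Most TRIM proteins carry a RING domain, which passes ubiquitin to a target, followed by B-boxes and a coiled coil, and a C-terminal domain that chooses the target and sorts the family into classes. The family is best known for antiviral defence, where several members tag sensors and adaptors of the RIG-I and STING pathways with ubiquitin and others bind incoming viruses. Other members work in chromatin silencing, on microtubules, in muscle or at intracellular membranes. Some, such as Trim14, Trim16, Trim29 and Trim44, lack the RING domain, so the family name does not make every member a ubiquitin ligase.

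The cells were chondrocytes cultured from cartilage of the knee of C57BL/6 mice. The cKO group (2 libraries) carried Col2a1-CreERT2 together with Kdm6bf/f, the floxed alleles of the histone H3K27 demethylase gene, and the control group (1 library) carried Kdm6bf/f alone. All 3 cultures received 1 µM 4-hydroxytamoxifen (4OH-TM) for 48 h, so the groups differ in the presence of the recombinase as well as in what it deletes. Col2a1 regulatory sequence drives the recombinase, which limits it to cells that use this promoter. The labels give no age or sex of the mice and do not say whether the 2 cKO libraries came from separate animals, and the p-values rest on how far these 2 libraries differ.

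Column totals were between 12489738 and 12636471 counts. Kdm6b had 1049 and 948 counts in the cKO libraries against 1289 in the control, and its log2 fold change was -0.39 ± 0.14 (SE; adjusted p = 0.138 in edgeR), so the targeted gene did not pass the test. Which exons are floxed is not stated in the labels, so a count over the whole gene checks the labels weakly. The cKO libraries differ in Xist, with 2 counts in replicate 1 and 10081 in replicate 2, so they are not repeats of 1 RNA sample. The control had 1 Xist count and so resembles replicate 1, which leaves the groups unmatched in this gene. The spread between the cKO libraries, on which the p-values rest, includes whatever goes with this difference. The part of this difference in the TRIM results was not tested. Of 8 chondrocyte markers, all 8 were detected and 7 fell in edgeR, where 1.9% of all genes tested were called lower. Of these 7, Sox9 did not pass in DESeq2 (adjusted p = 0.0567). With a prior of 3 degrees of freedom in edgeR only Matn1 passed (adjusted p = 0.0313). Col2a1, whose regulatory sequence also drives the recombinase, had both cKO libraries below the control, and its log2 fold change was -0.72 (adjusted p = 0.283 in edgeR, 0.000515 in DESeq2 and 0.00456 in limma-voom). Markers of other cells were summed in the same way. Leukocyte and macrophage markers summed to 13.2 and 13 CPM (counts scaled to library size with TMM factors) in cKO against 8.06 CPM in the control, with 0 of 4 tested passing. Itgam, Tyrobp, Cd52 and Cd3e had no count, and Ptprc had 1, 1 and 0 counts. The macrophage genes Csf1r (33, 28 and 8 counts, unadjusted p = 0.0052 in edgeR), Cd68 (59, 57 and 32, unadjusted p = 0.0431) and Cd14 (43, 62 and 38) lay above the control in both cKO libraries and did not pass after adjustment. Lyz2, the other gene of this list that was tested, had 21, 18 and 19 counts (log2 fold change 0.01). Among those not tested, Laptm5 had 7, 1 and 2 counts and Fcer1g had 0, 0 and 1. The sums were 7.07, 7.19 and 7.82 CPM for skeletal muscle, with 0 of 4 tested passing. They were 1.28, 0.391 and 0.242 CPM for endothelium, where 1 gene was tested and did not pass. Red blood cell markers summed to at most 0.0803 CPM, and 0 of them were tested. Mural markers summed to 1490, 1620 and 1420 CPM with 0 of 4 tested passing, and osteoblast markers to 15.3, 18.7 and 29.7 CPM with 1 of 2 lower. Nearly all of the mural sum came from Cspg4, Acta2 and Pdgfrb. The mural markers Myh11 and Rgs5 were low, with 6, 3 and 7 counts and 14, 24 and 13 counts. In bulk RNA, fewer cells of a type and less RNA per cell cannot be told apart. The part of other cells in the TRIM results was not tested.

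TRIM genes were higher in cKO chondrocytes or did not pass the test, and none was called lower. Of the 39 members tested, 12 rose and 0 fell in edgeR (adjusted p under 0.05 over all genes), where 3.01% of all genes tested were called higher and 1.9% lower. The members that rose were Trim30a, Trim34a, Trim30d, Trim14, Trim21, Trim12c, Trim12a, Trim5, Trim25, Trim56, Trim26 and Trim16, from 72.96-fold for Trim30a to 1.65-fold for Trim16. The median log2 fold change was 0.21 over the 39 members and -0.002 over all genes tested, and it was 2.50 over the 12 that rose and 0.08 over the other 27. The 12 and the 27 were split by the test on these same values, so their medians were bound to differ. Among those 27, the unadjusted p was under 0.05 for 4, of which 1 was lower in cKO. DESeq2 called 10 of the members higher and 0 lower, and limma-voom called 12 and 0. In edgeR a prior of 5 degrees of freedom left 7 members higher and a prior of 3 left 5. Without the filter on low counts edgeR called 0, with 16 members higher and 1 lower at an unadjusted p under 0.05.

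Beside the test, the position of the libraries was counted. In 25 of the 39 members tested both cKO libraries lay above the control, in 9 both lay below, and in 5 they lay on either side. Over all genes tested, 36.6% had both cKO libraries above the control and 37.4% had both below. A 2-fold difference from the control in each cKO library, among genes at a mean of at least 5 CPM, was found for 8 of 34 members, all higher, where 1.61% of all such genes were higher and 0.494% were lower. These 8 were Trim12a, Trim12c, Trim21, Trim25, Trim30a, Trim30d, Trim34a and Trim56.

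**Figure D1:**
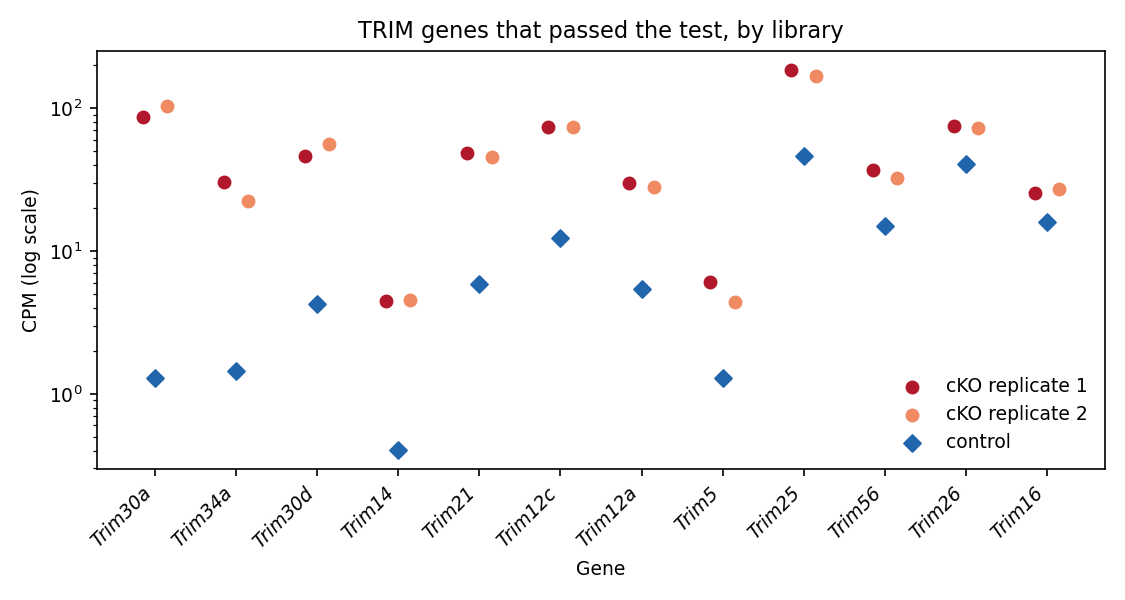
CPM (log scale) in each library of the 12 TRIM genes that passed the edgeR test, ordered by fold change; circles are the cKO libraries and diamonds the control. In each gene both cKO libraries lie above the control, from Trim30a, at 1.29 CPM in the control, to Trim16, at 15.96 CPM.

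The promoter sequences of the members that rose are shown because most of them share a short element. Interferon-stimulated response elements, the sites at which interferon-activated STAT and IRF complexes bind, hold a pair of GAAA boxes with 2 bases between them. The core searched was GAAANNGAAA, on both strands, where it reads TTTCNNTTTC on the other, and matches could overlap. It was searched in RefSeq promoter windows on GRCm38.p6, 250 bases before to 50 after each start site. Of the 12 members that rose, 10 had an entry, and 8 of these 10 held the core: Trim12a, Trim12c, Trim21, Trim26, Trim30a, Trim30d, Trim34a and Trim5. Over all 32851 windows of the table, 3.44% held it, and 3.99% of the 27025 genes had such a window. Trim14 and Trim16 had no entry. In Trim25 and Trim56 these letters were not in the window, which says nothing about binding there. Binding was not measured in the promoters that hold the core either, and the part of the core in the rise was not tested.

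For each of these 8 genes 1 stretch that holds the core is printed 5′ to 3′ on the strand of the gene, with the matched bases in capitals and all other bases in lower case. Stretches wholly before the start site have 60 bases, and those where the match lies after it have 30. Trim30a has a second listed start site that also holds the core, and it is printed last.
Trim30a, chr7:104465195-104465254, minus strand: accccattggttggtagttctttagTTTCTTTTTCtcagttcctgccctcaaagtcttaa
Trim30d, chr7:104507856-104507915, minus strand: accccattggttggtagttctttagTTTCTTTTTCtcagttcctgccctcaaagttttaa
Trim5, chr7:104288121-104288180, minus strand: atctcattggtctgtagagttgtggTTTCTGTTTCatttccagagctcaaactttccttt
Trim12c, chr7:104353350-104353409, minus strand: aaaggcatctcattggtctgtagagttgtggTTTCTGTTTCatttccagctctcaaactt
Trim12a, chr7:104315466-104315495, minus strand: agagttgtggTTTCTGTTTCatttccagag
Trim34a, chr7:104244457-104244486, plus strand: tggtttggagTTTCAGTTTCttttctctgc
Trim21, chr7:102565447-102565476, minus strand: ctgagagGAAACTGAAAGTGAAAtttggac
Trim26, chr17:36836964-36837023, plus strand: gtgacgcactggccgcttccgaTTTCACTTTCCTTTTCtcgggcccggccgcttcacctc
Trim30a, second start site, chr7:104446104-104446133, minus strand: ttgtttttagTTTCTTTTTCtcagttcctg

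In Trim21 and Trim26 a pair of overlapping matches forms a triple box of 16 bases. Counted with the start base as 0, the match began at -36 in Trim30a (2 at its second start site), -41 in Trim30d, -49 in Trim5, -29 in Trim12c, 10 in Trim12a and Trim34a, 13 in Trim21 and -160 in Trim26. When 60 bases were placed around the match in each promoter, Trim5 and Trim12a differed at 0 positions and Trim12c differed from either at 3. Trim30a and Trim30d differed at 1 position, and the second start site of Trim30a differed from Trim30d at 15. These promoters are copies within a gene cluster, so their matches are not independent of each other. Trim2, 1 of the 27 members tested that did not pass, held the core at 1 of its 5 listed start sites. Of those 27 members 21, or 77.8%, had an entry, under the 80% set for comparing a share, so no share is given for them. Of all 67 members 52, or 77.6%, had an entry, also under 80%, and 9 of these 52 held the core.

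The whole 250 bases before the first listed start site of Trim30a (chr7:104465194-104465443, minus strand), the member with the largest rise, are given for context, with the match in capitals.
Trim30a: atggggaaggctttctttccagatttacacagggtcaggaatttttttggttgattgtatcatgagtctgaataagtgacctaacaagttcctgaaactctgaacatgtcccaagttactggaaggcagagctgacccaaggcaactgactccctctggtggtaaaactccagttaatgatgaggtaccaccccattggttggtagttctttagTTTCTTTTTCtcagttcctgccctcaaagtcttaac

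The region before Trim25 (chr11:88999153-88999402, plus strand), the most abundant member that rose, is printed beside it as a promoter without the core.
Trim25: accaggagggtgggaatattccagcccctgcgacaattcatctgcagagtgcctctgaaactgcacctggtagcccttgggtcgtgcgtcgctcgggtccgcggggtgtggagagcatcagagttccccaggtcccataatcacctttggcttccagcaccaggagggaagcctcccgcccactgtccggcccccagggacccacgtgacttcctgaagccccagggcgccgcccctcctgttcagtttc

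A run of neighbouring genes on chromosome 7 held 6 of the 12 members that rose. It spans 289.1 kb (104218793 to 104507849, GENCODE M21 on GRCm38) and holds 10 members in the order Trim6, Trim34a, Trim5, Trim12a, Trim34b, Trim12c, Trim30b, Trim30c, Trim30a and Trim30d. Of these, 8 were tested and 6 rose. Genes of this region are the mouse relatives of the human TRIM5, TRIM6, TRIM22 and TRIM34 cluster, in which TRIM5 is known for binding retroviral capsids. Summed over the 10 genes, the region had 3425 and 3723 counts in the cKO libraries against 330 in the control, which is 275.0, 290.9 and 26.6 CPM and a ratio of 10.3 and 10.9.

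Trim30a restrains Toll-like receptor signalling by acting on the adaptors Tab2 and Tab3. It had 1075 and 1322 counts in the cKO libraries against 16 in the control, or 86.31, 103.3 and 1.29 CPM. Both cKO libraries were far above the control, and the log2 fold change was 6.19 ± 0.24 (SE, adjusted p = 5.27e-14 in edgeR). With only 16 control counts, counting error alone gives the 73.6-fold ratio of normalised counts a 95% interval of 45.2 to 129 (exact binomial).

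Trim30d, its neighbour, had 572 and 717 counts in the cKO libraries against 53 in the control, or 45.93, 56.02 and 4.27 CPM. The log2 fold change was 3.57 ± 0.22 (SE, adjusted p = 9.05e-11 in edgeR). As in Trim30a, replicate 2 was the higher of the cKO libraries. The other copies were nearly silent, with 1, 0 and 0 counts for Trim30b and 3, 0 and 0 for Trim30c, so the rise was carried by 2 of the 4 Trim30 genes. In GENCODE transcripts, 5.98% of the 50-base words of Trim30a and 7.49% of those of Trim30d also stand in another gene, and reads of those stretches could have been assigned to either copy.

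Trim34a had 378 and 288 counts in the cKO libraries against 18 in the control, or 30.35, 22.5 and 1.45 CPM. The log2 fold change was 4.18 ± 0.31 (SE, adjusted p = 2.34e-09 in edgeR), and the ratio of 18.2 had a counting interval of 11.4 to 30.9. Here replicate 1 was the higher cKO library. Its copy Trim34b had 19, 18 and 2 counts, a ratio of 9.09 with an interval of 2.34 to 77.8, and just missed the threshold (adjusted p = 0.0591 in edgeR). These copies share 39.8% of the words of Trim34a and 56.8% of those of Trim34b, so the split between them is uncertain. Added together, they had 397 and 306 counts in the cKO libraries against 20 in the control, a ratio of 19.8 and 14.8.

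Trim12c and Trim12a are the mouse counterparts closest to the capsid-binding TRIM5 of primates, and Trim12c also acts with Traf6 in interferon and NF-kB signalling. Trim12c had 916 and 946 counts in the cKO libraries against 152 in the control, or 73.54, 73.91 and 12.25 CPM. The cKO libraries were nearly equal, and the log2 fold change was 2.59 ± 0.17 (SE, adjusted p = 3.75e-10 in edgeR). Trim12a had 374, 357 and 67 counts, and edgeR gave it a log2 fold change of 2.42 ± 0.23 (adjusted p = 1.10e-07).

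Trim5 was lower in level, at 6.10 and 4.38 CPM in cKO against 1.29 CPM in the control, from 76, 56 and 16 counts. Its log2 fold change was 2.01 ± 0.45 (SE, adjusted p = 0.00813 in edgeR), and it did not pass in DESeq2 (adjusted p = 0.209). Words shared with another gene made up 36.3% of Trim5, 33.0% of Trim12c and 10.4% of Trim12a. The 3 genes together had 1366 and 1359 counts in the cKO libraries against 235 in the control, a ratio of 5.79 and 5.61. In this sum only the division of reads within the 3 genes cancels. Gm4992 also shares words with Trim5 and Trim12c, so some shared reads could have been counted outside the sum. Trim6, at the edge of the cluster, had 11, 19 and 6 counts and did not pass (log2 fold change 1.28 ± 0.77 SE, adjusted p = 0.469 in edgeR).

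**Figure D2:**
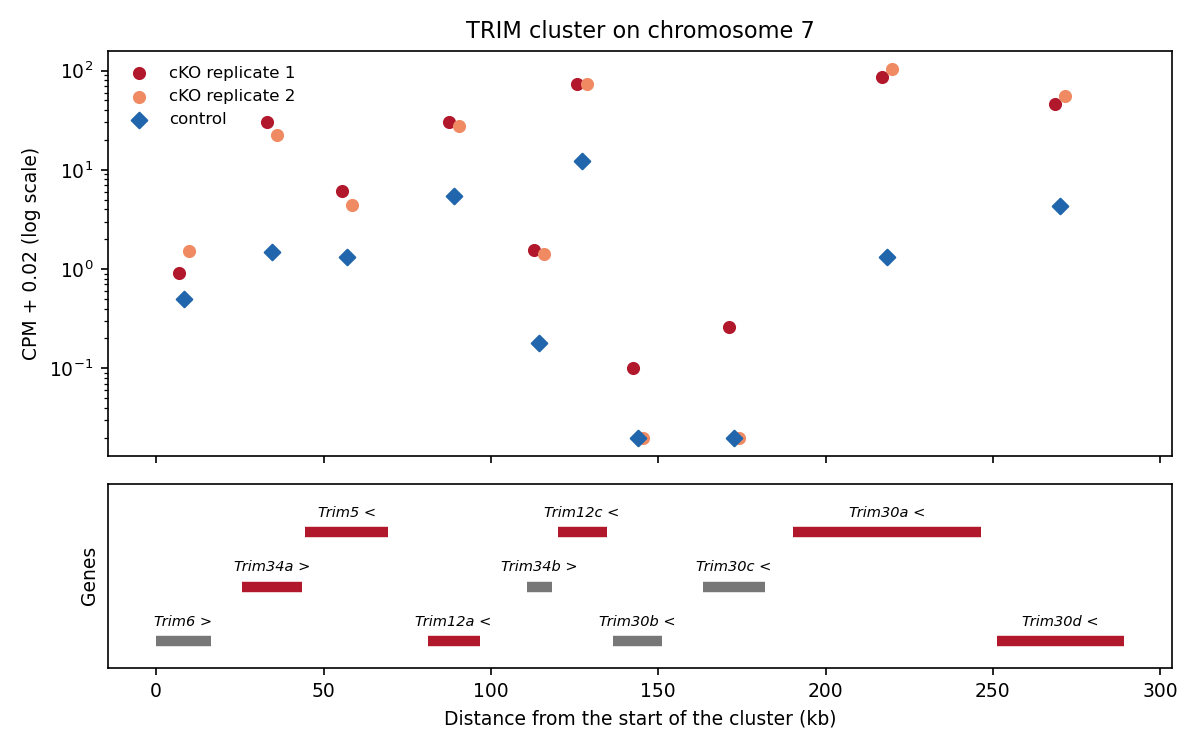
CPM plus 0.02 (log scale) of the 10 TRIM genes of the chromosome 7 cluster in each library, above their positions in kb from the first base of the cluster (red bars passed the test, grey did not or were not tested; arrows give the strand). The cKO libraries (circles) lie above the control (diamonds) at each of the 8 genes tested, while Trim30b and Trim30c sit at or near 0.

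The other 6 members that rose lie outside this cluster. Trim25, the ligase best known for activating the RNA sensor RIG-I, was the most abundant of the 12, with 2316 and 2136 counts in the cKO libraries against 577 in the control, or 185.9, 166.9 and 46.51 CPM. Both cKO libraries were well above the control, and the log2 fold change was 1.92 ± 0.15 (SE, adjusted p = 5.98e-09 in edgeR). Trim25 lies on chromosome 11 (88999376 to 89020293, plus strand).

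Trim21, a cytosolic antibody receptor that sends antibody-coated viruses to the proteasome, lies on chromosome 7 (102557921 to 102565486, minus strand), outside the cluster. It had 608 and 580 counts in the cKO libraries against 73 in the control, or 48.82, 45.32 and 5.88 CPM. The cKO libraries differed little from each other, and the log2 fold change was 3.0 ± 0.21 (SE, adjusted p = 4.92e-10 in edgeR). Its neighbour Trim68, 1 of the members on the same chromosome, had 11.56, 10.86 and 12.25 CPM and did not pass.

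Trim56, which promotes ubiquitin tagging in the STING pathway, had 458 and 416 counts in the cKO libraries against 187 in the control, or 36.77, 32.5 and 15.07 CPM. The log2 fold change was 1.20 ± 0.19 (SE, adjusted p = 0.000223 in edgeR). Trim56 was the 1 member that rose among the 8 without a C-terminal domain, of which 3 were tested.

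Trim14, a mitochondrial adaptor of the RIG-I pathway without a RING domain, was close to the detection limit of the control. It had 56 and 58 counts in the cKO libraries against 5 in the control, a ratio of 11.2 with a counting interval of 4.66 to 35.2 (log2 fold change 3.45 ± 0.58 SE, adjusted p = 0.000481 in edgeR). Its exons overlap antisense genes over 1650 bases, among them Nans, which had 808, 999 and 848 counts and did not pass (log2 fold change 0.06). Since the use of strand is not given, reads of the overlap could have been counted for either gene.

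Trim26 and Trim16 rose least. Trim26, a member encoded in the region of the major histocompatibility complex on chromosome 17 that limits interferon production through Irf3, had 941 and 928 counts in the cKO libraries against 508 in the control. Its log2 fold change was 0.85 ± 0.15 (SE, adjusted p = 0.000798 in edgeR). Trim16, which lacks a RING and takes part in the autophagy of damaged membranes, had 315, 349 and 198 counts, and edgeR gave it a log2 fold change of 0.72 ± 0.19 (adjusted p = 0.0326). In DESeq2 Trim16 did not pass (adjusted p = 0.518), and 237 bases of its exons overlap Fbxw10 (12, 7 and 7 counts) on the same strand.

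**Figure D3:**
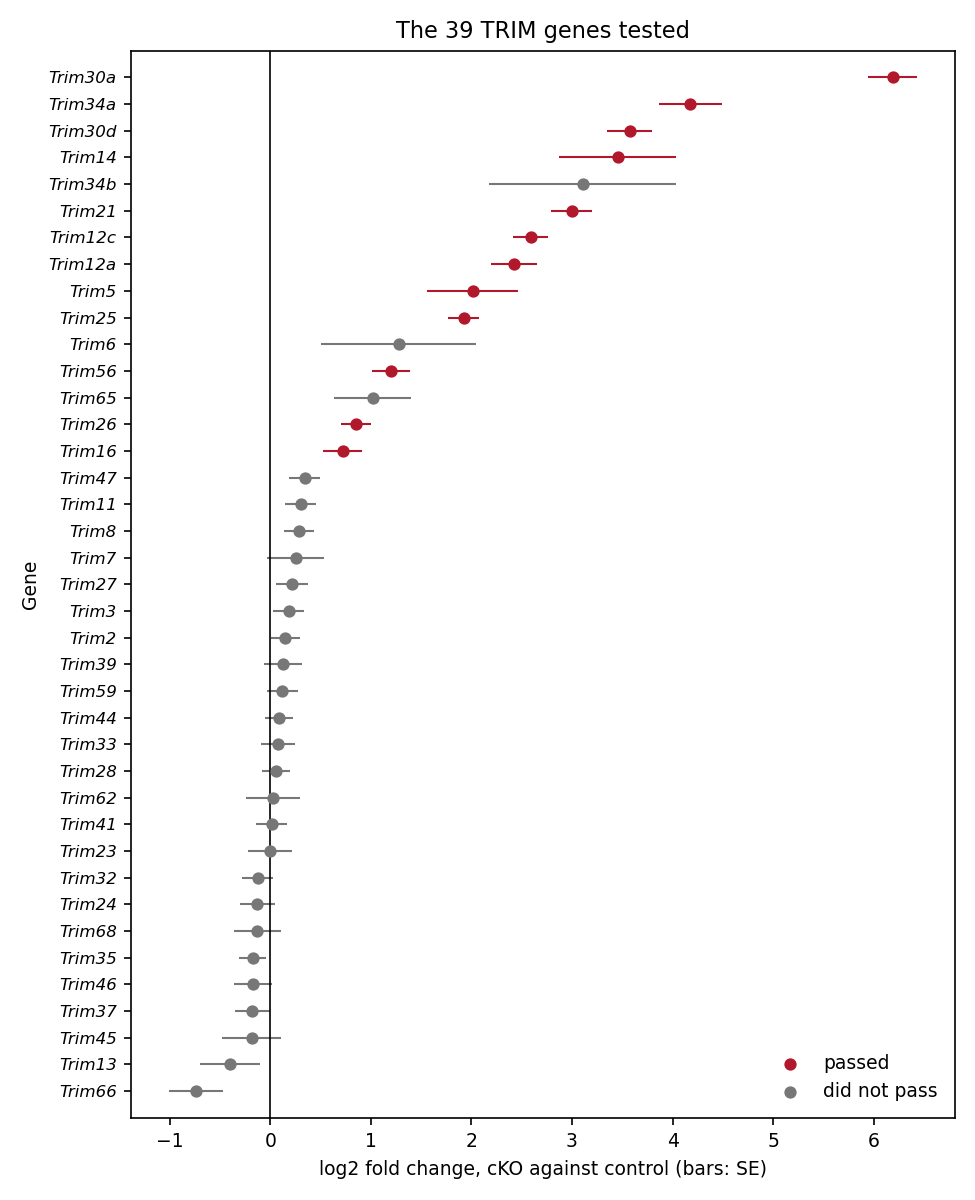
Log2 fold change of cKO against control with its SE for the 39 TRIM genes tested, red where the adjusted p in edgeR was under 0.05. The 12 red points lie between 0.72 and 6.19, and 23 of the 27 grey points lie within 0.5 of 0.

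The members that rose were also counted by class of C-terminal domain. The PRY-SPRY class, whose domain is a protein-binding surface shared by most antiviral TRIM proteins, has 38 members, of which 23 were tested and 11 rose (median log2 fold change 1.02). In the class without a C-terminal domain 3 of 8 were tested and 1 rose (median 0.29). None of the other classes held a member that rose: 0 of 4 tested with a PHD finger and bromodomain (median -0.03), 0 of 4 with NHL repeats or a filamin domain (0.01), 0 of 2 with a transmembrane segment (-0.14), and 0 of 1 each with a COS box (-0.17), a MATH domain (-0.18) or an ARF domain (0.0). Members were placed in classes from general knowledge, and their protein sequences were not checked for these domains. Over all genes tested 3.01% were called higher, so 0 of 4 or fewer is near that share and sets no class apart. The 11 of the PRY-SPRY class include the 6 that rose in the chromosome 7 cluster, which are neighbouring and partly copied genes. The class counts describe these genes and were not compared by a test.

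Of the 6 members with the highest mean CPM, Trim25, Trim30a and Trim26 rose, and Trim28, Trim35 and Trim44 did not pass. Trim28, the corepressor through which KRAB zinc finger proteins silence transposons, had 279.6 and 306.3 CPM in cKO against 281.2 CPM in the control, and Trim35 had 230.7, 224.5 and 256.6 CPM. In Trim28 the control lay between the cKO libraries, and its log2 fold change was 0.06 ± 0.14 (SE; adjusted p = 0.905 in edgeR). In Trim35 both cKO libraries were lower, by 0.17 ± 0.13 on the log2 scale, a difference of little more than its SE.

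Trim44, a RING-less member that binds ubiquitin through another zinc finger, had 124.2, 109.2 and 109.9 CPM, and its log2 fold change was 0.09 ± 0.14 (SE). Other chromatin members had log2 fold changes near 0, with 0.08 ± 0.17 for Trim33, which acts in TGF-beta signalling through Smad4, and -0.13 ± 0.17 for the nuclear receptor cofactor Trim24. Trim66, a relative of these, had the lowest log2 fold change of the members tested. Its level was 7.39 and 5.86 CPM in cKO against 11.04 CPM in the control. The log2 fold change was -0.74 ± 0.27 (SE), and it did not pass (adjusted p = 0.153 in edgeR).

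The next values are of 5 members with other known roles, none of which passed. Trim8, which acts in cytokine signalling, had 61.34, 67.5 and 52.71 CPM (log2 fold change 0.29 ± 0.15 SE), and Trim2, studied in neurons, had 66.56, 61.96 and 57.87 CPM (0.15 ± 0.15). Trim3, a relative of Trim2, had 52.67, 61.41 and 50.3 CPM. Trim32, mutated in a limb-girdle muscular dystrophy, had 46.81, 42.97 and 48.84 CPM, and Trim37, which is needed for normal centrosome number, had 29.23, 24.69 and 30.47 CPM. The 24 members that did not pass at a mean of at least 5 CPM had log2 fold changes between -0.74 and 0.34.

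Trim65 and Trim47 lie next to each other on chromosome 11 and share 225 bases of exon. Trim65, which acts on the RNA sensor MDA5, had 62, 66 and 31 counts, and edgeR gave it a log2 fold change of 1.02 ± 0.38 (adjusted p = 0.161), and Trim47 had 659, 692 and 523 counts (0.34 ± 0.15, adjusted p = 0.268). In both genes the cKO libraries were above the control, but neither passed over all genes. Trim13, a ligase of the endoplasmic reticulum membrane, had 65, 85 and 97 counts, with both cKO libraries below the control (-0.40 ± 0.30).

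The 28 members that were not tested include the muscle ligases. Trim63 (MuRF1) had 0, 1 and 0 counts, Trim54 (MuRF3) 1, 2 and 1, Trim55 (MuRF2) 0, 0 and 4, and Trim72, a membrane repair protein of muscle, 0, 4 and 0. Each lies at or near the 3 counts that a count of 0 allows in a library, so a difference was not detectable at this depth. Of the others, 17 of the 28 in all had at least 1 count, and Trim69 had 4, 7 and 0. Trim38, a regulator of innate sensors, had 1, 0 and 0 counts, and Trim31 had none.

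The rise changed which TRIM genes were most expressed. Per kb of exon, Trim30a ranked 36 of 39 in the control, at 0.314 CPM per kb, and 5 and 4 in the cKO libraries, at 21 and 25.1 CPM per kb. Trim25 ranked 11 in the control and 3 in both cKO libraries, and Trim12c ranked 20 and then 6 in both. Trim28 and Trim35 held ranks 1 and 2 in each library. Summed over the 67 members, TRIM genes made up 1967 and 1951 CPM in cKO against 1432 CPM in the control. The 12 that rose gave 33.0% and 32.6% of this sum in cKO and 10.5% in the control, while the 27 that did not pass summed to 1315, 1311 and 1280 CPM. The 12 were picked as higher in these same libraries, which fixes the direction of their share. Only its size is described here.

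**Figure D4:**
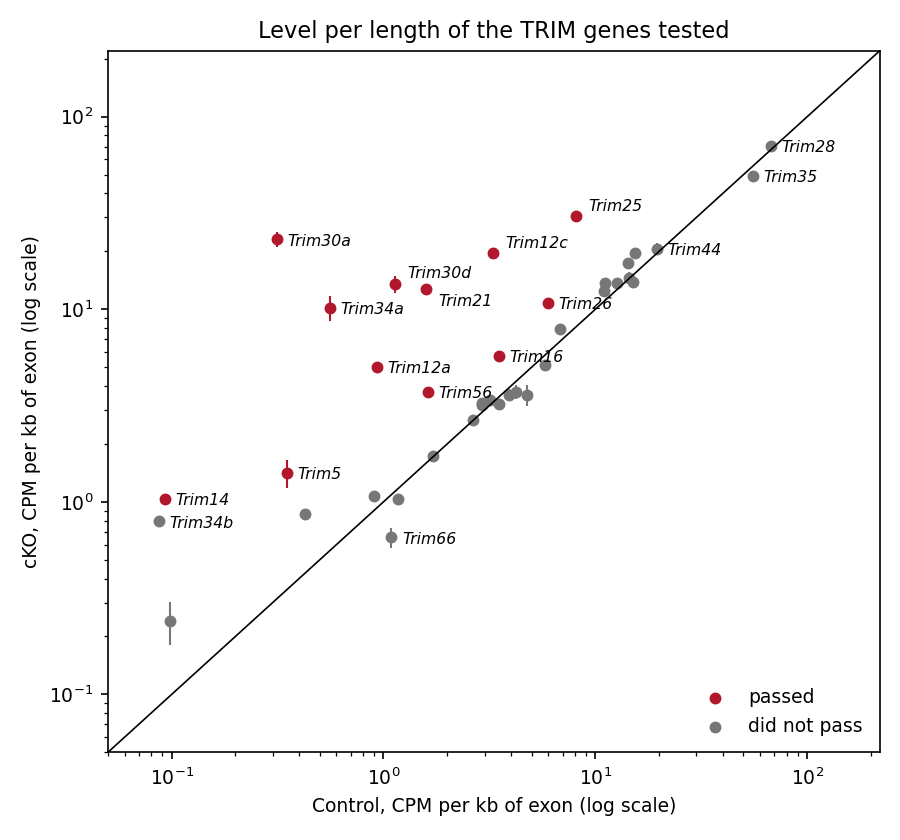
Level per length in CPM per kb of exon, cKO (mean of 2 libraries, with a line from one library to the other) against the control, both on log scales, for the 39 TRIM genes tested; the diagonal marks equal levels. The 12 genes that passed (red) lie above the diagonal, and Trim28 and Trim35 lie close to it at the top.

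Family genes whose symbols fall outside the pattern were looked at on their own. Pml, the founding gene of nuclear bodies, had 1965 and 1924 counts in the cKO libraries against 569 in the control and rose by 1.75 ± 0.15 (SE, adjusted p = 2.05e-08 in edgeR). Mid1 and Mid2, microtubule ligases on chromosome X, did not pass (log2 fold changes 0.13 ± 0.15 and -0.51 ± 0.17, adjusted p = 0.775 and 0.101). Mefv, Triml1 and Triml2 had no count, and Trim30e-ps1 had 2, 3 and 2.

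Partners of TRIM proteins in the RIG-I, STING and ubiquitin pathways were read from a list of 36 genes, all tested. Of these, 5 rose and 0 fell in edgeR, where 3.01% of all genes tested were called higher and 1.9% lower. A further 3 were higher at an unadjusted p under 0.05, which 2431 of the 15529 genes tested reached in either direction. The median log2 fold change of the 36 was 0.065. Because the list was chosen with earlier results of these data known, its counts are a description only. The sensors among the 5 that rose were Ddx58, which encodes RIG-I, at 3922, 3916 and 698 counts (2.46 ± 0.15 SE), and Ifih1, which encodes MDA5, at 1374, 1408 and 102 (3.74 ± 0.18). The others were the transcription factor Irf7 (5.28 ± 0.19), the conjugating enzyme Ube2l6 (2.81 ± 0.24) and Tmem173, which encodes STING (0.80 ± 0.18, adjusted p = 0.00793 in edgeR). Tmem173 did not pass in DESeq2 (adjusted p = 0.191).

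The other partners did not pass. Among them, as examples picked after their values were seen, the adaptor gene Mavs had 550, 572 and 540 counts (log2 fold change 0.03 ± 0.15 SE), Irf3 had 386, 454 and 419 (-0.02 ± 0.17), and Traf3 had 634, 628 and 632 (-0.03 ± 0.15). Mb21d1, which encodes cGAS, lay above the control in both cKO libraries, at 109, 99 and 63 counts, with 0.70 ± 0.30 (adjusted p = 0.249 in edgeR). The kinase genes Tbk1 and Ikbke had 0.33 ± 0.18 and 0.38 ± 0.18, and Ube2n, the conjugating enzyme for chains linked through lysine 63, had -0.06 ± 0.20.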

How the data were processed

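The authors deposited raw read counts as 1 table, with gene symbols as rows and libraries as columns. Per the labels' protocols, Trizol RNA was depleted of ribosomal RNA and prepared for the Ion Proton. The submitters' processing notes list GRCm38 and GRCh37 without a role; for the aligner, counter, annotation and strand setting, the answer is not given in these sources. The members and lists were chosen with earlier results of these data known. Of the 67 members, all matched 1 gene of GENCODE M21.

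Counts were fitted over the whole table with edgeR 4.0.16 in R 4.3.3 (filterByExpr, TMM, quasi-likelihood F test, Benjamini-Hochberg adjustment over 15529 genes, threshold 0.05). The fit has 1 residual degree of freedom and leans on a prior of 19.9, and takes the single control to vary as the cKO libraries do. Each SE is |log2 fold change| over the root of F. The 2 cKO columns differed beyond counting noise (chi-square of 9.06 per gene over 16293 genes with at least 10 counts in both columns together). Intervals cover counting error only. The script was tested on simulated counts. Alternatives were DESeq2 1.42.0, limma-voom (limma 3.58.1), other scalings and filters, and prior degrees of freedom of 5 and 3. Full values were planned for members past the threshold and the 6 most abundant; of the partner list at most 12 genes with small p were to be named, and Mavs, Irf3, Traf3 and Ube2n were added after their values were seen. A RING search in protein sequences was planned but is not reported here.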

Additional observations from a re-analysis of the deposited data

How the results depend on the processing

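The 12 TRIM genes called higher stayed 12 with DESeq2 size factors, with limma-voom and with a minimum of 1 CPM in at least 2 libraries, and were 10 without scaling (Trim5 and Trim16 lost) and 10 in DESeq2 (the same 2 lost). A prior of 5 degrees of freedom left 7, a prior of 3 left 5, and none (0) passed without a filter on low counts, where 24051 genes entered, the estimated prior fell to 2.03 and Trim30a had an adjusted p of 0.116. Without the members on chromosome 7, an alternative added after seeing the data, 5 remained. No setting called a member lower. The partner count of 5 higher was 4 to 5 in the other settings and 0 without a filter. Over all genes, 467 were called higher and 295 lower; these were 227 and 89 without scaling, 226 and 84 in DESeq2, 151 and 42 with a prior of 5, 83 and 4 with a prior of 3, and 0 and 0 without a filter. Trim12a (adjusted p = 0.0536), Trim34a, Trim14, Trim26, Trim56, Trim5 and Trim16 were the members lost with a prior of 3. The count at least 2-fold higher in each cKO library was 8 without either cKO replicate, 8 with a prior count of 0.5 and 11 at a mean of at least 1 CPM. The promoter count was 8 of 10 also with 1 to 3 bases between the boxes, while the share over all genes rose from 3.99% to 9.91%. With either cKO replicate left out, which leaves 1 library against 1 and no test, all 12 kept their direction. No paired analysis was possible because the control has 1 library and its label carries no replicate number. Members with few control counts (Trim14, Trim5, Trim34a, Trim30a) have folds limited by counting error in that 1 library.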
